A study of Mus musculus with 19 samples.

Results

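The heat shock and co-chaperone families were followed in 19 reperfused mouse hearts. Members were all genes whose symbol in the array annotation belongs to the HSPA, HSPB, HSPD, HSPE, HSPH, HSP90, DNAJA, DNAJB, DNAJC or BAG series, without Hspa5, Hsp90b1 and Dnajb9. They had to have a probe set that lists a single gene, and the probe set with the highest mean stood for a gene with several. This gave 69 of the 22180 genes measured: 13 of the HSP70 and HSP110 families, Hsp90aa1 alone of the HSP90 family, the 2 subunits of the mitochondrial chaperonin, 6 small heat shock proteins, 3 other genes with Hspb names, 3 of DNAJA, 11 of DNAJB, 24 of DNAJC and 6 BAG genes. The families are best known from the cytosol, but the symbols also take in members of other compartments. Among them are Hspa9, Hspd1, Hspe1 and Dnaja3 of the mitochondria and Hspa13, Dnajb11, Dnajc1, Dnajc3 and Dnajc10 of the endoplasmic reticulum. These are examples, and members not named here need not be cytosolic. Dnaja1, Dnajb8, Dnajc17, Dnajc19 and Hspb2 were found only in probe sets that list several genes, and Hsp90ab1 and Hsf1 were not analysed here.

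The hearts were isolated and perfused by the Langendorff method, in which a pump drives buffer backwards through the aorta. In all of them a stabilisation period of 20 min came before 20 min of stopped flow, flow was then restored for 20 min before freezing, and 300 ng of RNA from each was hybridised to a whole-transcript Affymetrix array. The groups were wild-type mice at ZT0, or lights on (WT ZT0, n = 7), wild-type mice at ZT12, or lights off (WT ZT12, n = 7), and Rev-erb alpha knockout mice at ZT12 (KO ZT12, n = 5). The wild-type strain is C57Bl6J, and no strain, age or construct is given for the knockout. No heart without ischemia and no knockout heart at ZT0 is labelled, so the values describe hearts after reperfusion and none shows an induction.

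HSP70 proteins bind unfolded stretches of other proteins and let go of them in a cycle driven by ATP. J-domain proteins (DNAJA, DNAJB and DNAJC) bring them clients and start ATP hydrolysis, while BAG proteins and HSP110 release the nucleotide again. Small heat shock proteins hold unfolding proteins without ATP, in muscle mostly at the sarcomere, and HSP90 finishes the folding of kinases and receptors. In stressed cells the transcription factor HSF1 binds heat shock elements, inverted repeats of the unit GAA, and raises the inducible members within minutes, whereas constitutive members such as Hspa8 are made all the time. REV-ERB alpha is a clock repressor encoded by Nr1d1.

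Array medians lay between 3.25 and 3.32 on the deposited log2 scale, and arrays correlated at 0.972 to 0.985 over all probe sets. The Nr1d1 probe set read 5.76 to 6.67 in WT ZT0, 6.46 to 7.28 in WT ZT12 and 6.3 to 6.51 in KO ZT12, and since its place relative to the deletion is not given, it does not check the genotype. The 8 cardiomyocyte markers measured had means of 11.15 to 11.28 in every array. The mean of 8 atrial muscle markers was under 7 in 4 arrays (WT ZT12 replicate 5 and KO ZT12 replicates 2, 4 and 5, at 5.69 to 6.03) and 7.05 to 8.94 in the rest. In tissue RNA, fewer cells of a type and less RNA per cell cannot be told apart. KO ZT12 replicate 3 stood apart in the heat shock genes: 11 of the 69 members (15.9%) had their lowest value of all 19 hearts there, against 5.53% of all genes, and 3 members (4.35%) lay more than 1 log2 unit below the mean of the other 4 knockout hearts, against 0.171% of all genes. Results that rest on this heart are given both with it and without it.

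Promoter stretches are shown for members whose levels moved together from heart to heart and that held an inverted pair before the gene start. Hspe1, which held pairs but did not move with them, is shown beside them. It was not the only such member. Dnajb6, Dnajc10, Dnajc27, Hspb3, Hspb8 and Hspd1 also held a pair in their promoter windows and did not move with these genes. The stretches come from the RefSeq promoter windows of GRCm38.p6 and run 5′ to 3′ on the strand of the gene. Capitals mark inverted pairs of heat shock element units, GAANNTTC or TTCNNGAA. Not shown are Dnajb1 and Dnajb4, which also moved together with these genes, and Bag3, which came close. These genes held no pair before their most upstream start. Hsp90aa1 and Hspa8, which moved too, had no window. The stretches of Hspa1b (chr17:34959299-34959378, minus strand) and Hspa1a (chr17:34972217-34972296, minus strand) run from 140 to 61 bases before the gene start, and the same letters stand in both.
Hspa1b: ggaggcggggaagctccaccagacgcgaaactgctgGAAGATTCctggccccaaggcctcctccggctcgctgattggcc
Hspa1a: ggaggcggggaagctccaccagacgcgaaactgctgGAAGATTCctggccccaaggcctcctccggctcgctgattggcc
Of the 250 bases before the start, 247 (98.8%) were identical between these neighbouring genes. Hsph1 (chr5:149636337-149636416, minus strand), Hspb1 (chr5:135887776-135887855, plus strand) and Hspe1 (chr1:55088028-55088107, plus strand) follow.
Hsph1: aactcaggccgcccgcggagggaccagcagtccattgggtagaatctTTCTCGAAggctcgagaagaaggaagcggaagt
Hspb1: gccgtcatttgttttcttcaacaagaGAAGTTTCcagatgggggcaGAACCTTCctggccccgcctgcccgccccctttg
Hspe1: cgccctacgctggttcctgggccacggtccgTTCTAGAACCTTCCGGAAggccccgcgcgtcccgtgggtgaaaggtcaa
In Hspe1, 3 pairs overlap and make 2 elements of 3 units.

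Windows from 250 bases before to 50 bases after the start were at hand for 57 of the 69 members and for 27025 genes in all. The motif of 3 units, GAANNTTCNNGAA on either strand, was in 4 of the 57 members (7.02%; Dnajb6, Hspd1, Hspe1 and Hsph1) and in 0.662% of all genes. Of these 4, Hsph1 moved with Hspa1b from heart to heart (correlation 0.83, described below). Dnajb6 (-0.25), Hspd1 (0.30) and Hspe1 (0.24) did not. The pair GAANNTTC was in 13 members (22.8%) and in 9.04% of all genes, and TTCNNGAA in 6 members (10.5%) and in 9.6% of all genes. Both pairs lie within the longer motif, so these counts overlap. The E-box CACGTG, a motif of the clock activators, was in 6 members (10.5%; Dnajc1, Dnajc16, Dnajc8, Hspbap1, Hspd1 and Hsph1) and in 8.09% of all genes. The windows of Dnajb1, Hspb7, Hspa12a and Dnajc3 held neither pair, which says only that these letters are not in these windows.

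The inducible genes moved together from heart to heart. Hspa1b, 1 of the neighbouring pair of genes for stress-inducible HSP70, ran from 10.31 to 11.04 (median 10.61) in WT ZT0, from 10.38 to 10.94 (median 10.77) in WT ZT12, and read 10.43, 10.22, 8.66, 10.67 and 10.78 in KO ZT12 replicates 1 to 5. The groups overlapped, and the third knockout heart was lower than every other heart. Its value was 3.65-fold below the mean of the other 4 knockout hearts. Hspa1a, the other gene of the pair, ran from 10.67 to 11.47 (median 11.21) in WT ZT0, from 10.91 to 11.36 (median 11.23) in WT ZT12, and read 10.87, 10.93, 9.59, 11.19 and 11.55 in KO ZT12, with the same heart lowest, by 2.91-fold. The 2 genes are nearly identical, so their probes may each read both transcripts.

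The partners of inducible HSP70 had a similar spread over the hearts. Dnajb1, the main J-domain partner of inducible HSP70, ran from 7.57 to 8.57 (median 8.19) in WT ZT0, from 7.71 to 8.42 (median 8.32) in WT ZT12, and read 8.03, 8.19, 6.47, 8.21 and 8.58 in KO ZT12. Hsph1, the inducible HSP110 that acts as an exchange factor, ran from 7.92 to 8.71 (median 8.28) in WT ZT0, from 7.56 to 8.57 (median 8.39) in WT ZT12, and read 8.03, 7.69, 7.08, 8.08 and 8.39 in KO ZT12. The groups overlapped in both genes, and the third knockout heart was again the lowest of all, by 3.44-fold for Dnajb1 and 1.95-fold for Hsph1.

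Hsp90aa1, the inducible HSP90, ran from 7.69 to 8.04 (median 7.86) in WT ZT0, from 7.59 to 7.90 (median 7.75) in WT ZT12, and read 7.58, 7.56, 6.79, 7.77 and 7.78 in KO ZT12. Hspb1, the small heat shock protein that guards actin filaments, ran from 7.12 to 7.95 (median 7.63) in WT ZT0, from 7.30 to 7.75 (median 7.40) in WT ZT12, and read 7.40, 7.44, 6.73, 7.54 and 7.83 in KO ZT12. The third knockout heart was lowest in both, by 1.84-fold and 1.77-fold, and the groups overlapped. In the same heart the constitutive HSP70, Hspa8, was 1.14-fold lower than the mean of the other 4 knockout hearts, and Dnajb4, Dnaja4 and Hspb6 were 1.25-fold to 1.26-fold lower. The mean of 29 immediate early genes, which are induced by stimulation and handling, was 6.76 there, the lowest of all 19 hearts (6.82 to 7.82 in the rest), and its atrial marker mean was 8.08. Their part in the low heat shock values was not tested.

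**Figure D1:**
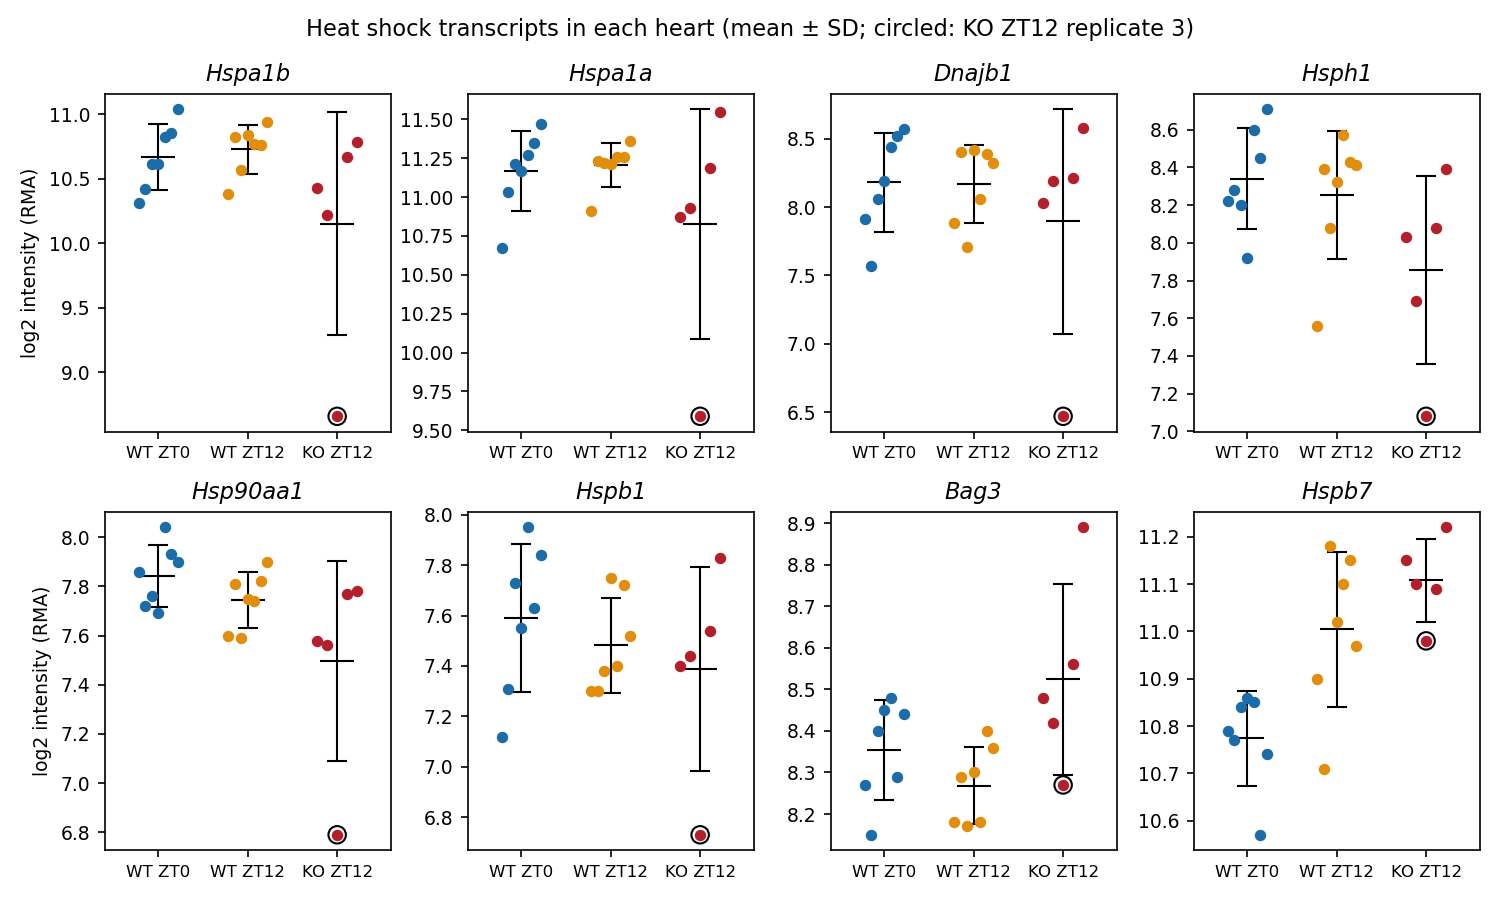
Deposited log2 intensity (RMA) of 8 members in each heart, by group, with the mean and SD as bars. KO ZT12 replicate 3 (circled) is the lowest heart in 6 panels, Hspa1b at 8.66 and Dnajb1 at 6.47 among them, while for Hspb7 all KO ZT12 hearts lie above all WT ZT0 hearts.

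To measure how far members moved together within groups, the group mean was removed from each gene and the deviations of Hspa1b were correlated with those of 14 other genes and 2 list means over the 19 hearts. By a two-sided permutation test within groups, adjusted over these 16 relations, 7 genes passed. Pearson's r was 0.97 for Hspa1a (permutation p = 1e-05, the smallest the resamples can give, adjusted p = 0.00016), 0.94 for Hsp90aa1 (adjusted p = 0.00045) and 0.94 for Dnajb1 (adjusted p = 0.00028). Hsph1 and Hspb1 both had r = 0.83 (adjusted p = 0.00028), Dnajb4, another J-domain protein of muscle, had 0.74 (adjusted p = 0.00045) and Hspa8 had 0.73 (adjusted p = 0.0017). These 7 had Spearman rho of 0.75 to 0.88, with permutation p adjusted to 0.0016 at most. The relation did not rest on the third knockout heart alone: without it r was 0.89 for Hspa1a, 0.81 for Dnajb1, 0.80 for Hsph1, 0.77 for Hspa8, 0.74 for Hsp90aa1 and Hspb1, and 0.73 for Dnajb4. Without the 2 hearts farthest from the median of Hspa1b (KO ZT12 replicates 2 and 3), r for these genes was 0.71 to 0.88.

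Bag3 and the immediate early genes were near the threshold. Bag3, the exchange factor that links HSP70 to small heat shock proteins and to autophagy at the Z-disc, had r = 0.70 with Hspa1b (adjusted p = 0.056) and r = 0.68 without the third knockout heart (adjusted p = 0.0083). The immediate early mean had r = 0.54 (adjusted p = 0.056), which was 0.24 without the 2 farthest hearts. The remaining genes of this family did not pass. They were Cryab, the abundant small heat shock protein alpha B-crystallin (r = 0.50), Chordc1, an HSP90 co-chaperone (0.32), the mitochondrial chaperonin subunits Hspd1 (0.30) and Hspe1 (0.24), and the muscle small heat shock proteins Hspb7 (0.20) and Hspb8 (-0.20). The atrial mean had r = -0.29.

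**Figure D2:**
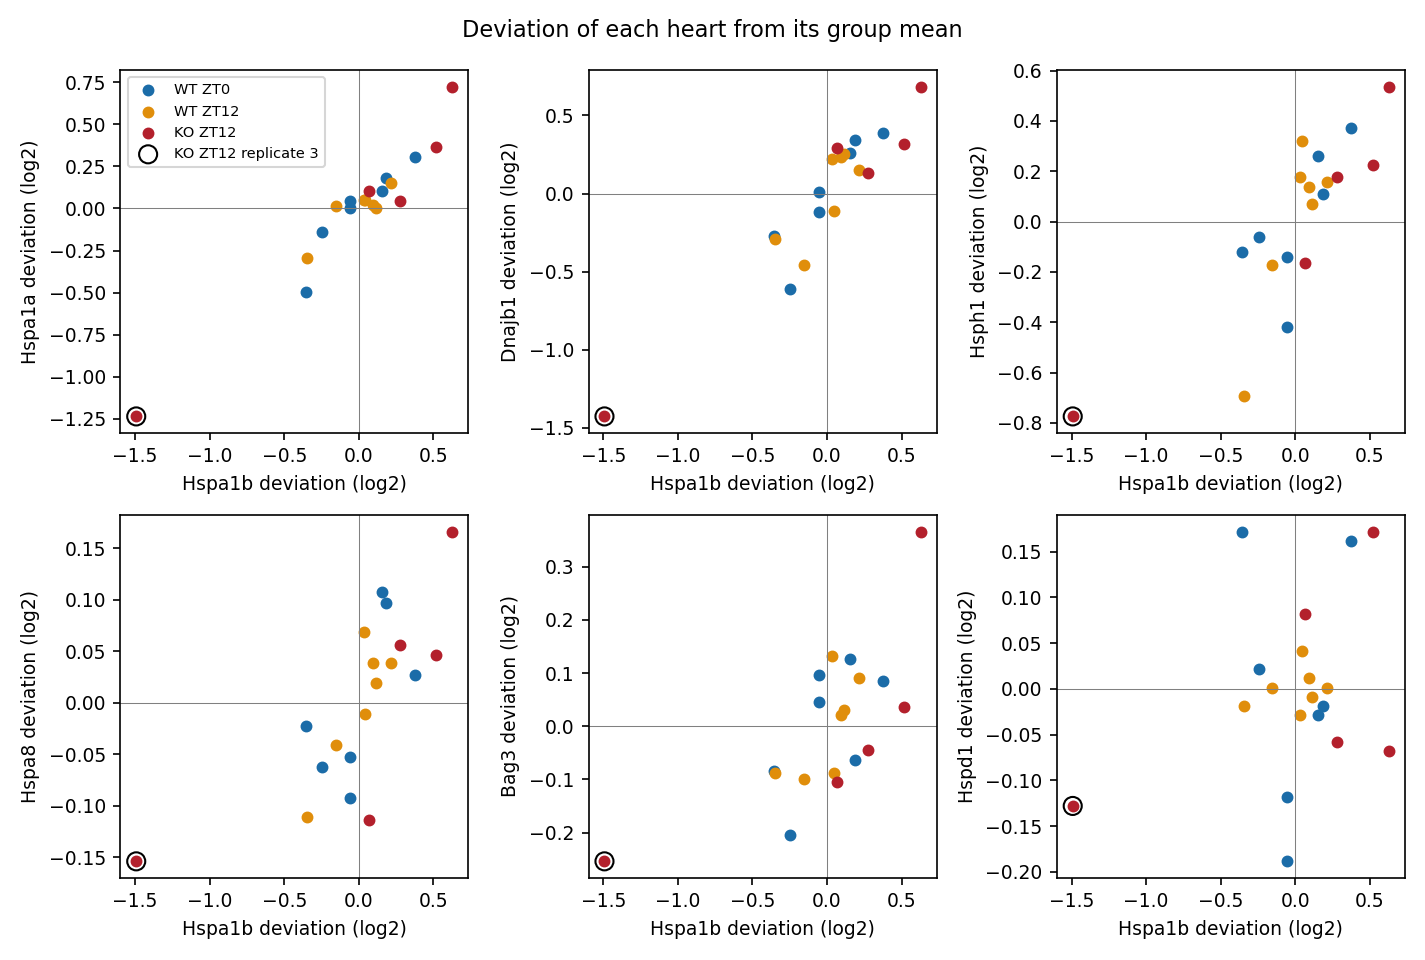
Deviation of each heart from its group mean (log2) for Hspa1b on the x axis and 6 other members on the y axes, coloured by group. Hspa1a, Dnajb1, Hsph1 and Hspa8 follow Hspa1b with and without KO ZT12 replicate 3 (circled), and Hspd1 had r = 0.30.

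Over all members, 8 of the other 68 (11.8%) had an r above 0.7 with Hspa1b, against 0.41% of all other genes. Without the third knockout heart they were 7 (10.3%) against 0.216%. Since each r runs over the same 19 hearts, the members are not independent of each other. All genes hold a larger share of dim probe sets than the members, and r was not compared at equal brightness. Next in order came Dnaja4, a J-domain protein (r = 0.66), the testis-type HSP70 Hspa2 (0.63), Hspb6, a small heat shock protein of muscle (0.62), and Hspa1l, the third gene of the HSP70 cluster (0.55). The lowest r was -0.61, for the mitochondrial J-domain protein Dnaja3, and without the third knockout heart it was -0.65, for Dnajc2, a J-domain protein of the ribosome. The 10 genes of the whole array with the highest r were Hspa1a, Hsp90aa1 and Dnajb1 (values above) and Ctla2b (0.89), Mir5099 (0.88), Zfp879 (0.88), Prss36 (0.86), Ncapd3 (0.85), Cited2 (0.85) and Efnb3 (0.84). Without the third knockout heart Hspa1a was still first at 0.89, while Dnajb1 was at rank 6 and Hsp90aa1 at rank 23. Ctla2b was then at 0.61 and Efnb3 at 0.45. The 10 highest without that heart held 3 members, Hspa1a, Dnajb1 and Hsph1, and the next after Hspa1a were 9330133O14Rik (0.84) and Nop56 (0.83).

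**Figure D3:**
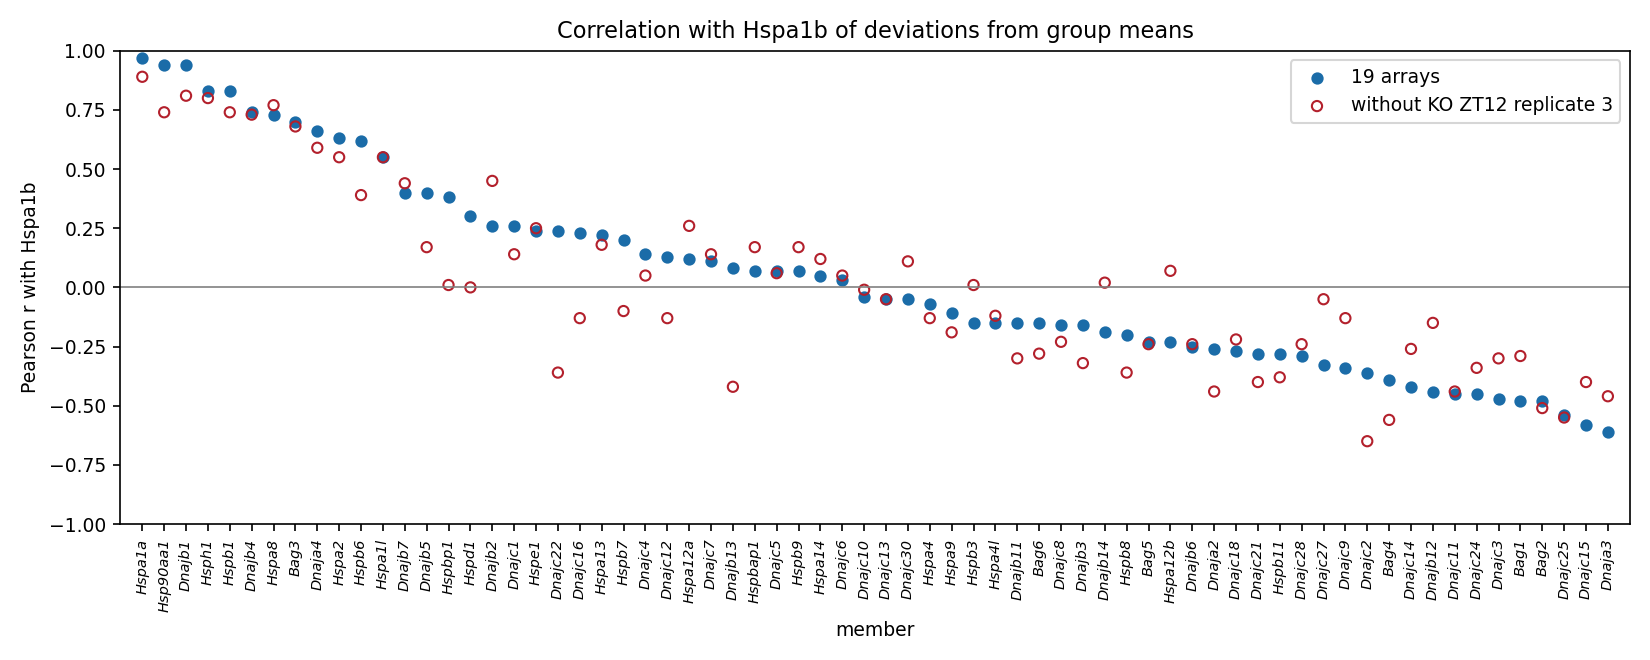
Pearson r with Hspa1b of the other 68 members, from deviations from group means, over 19 arrays (filled) and without KO ZT12 replicate 3 (open). From Hspa1a at 0.97 to Bag3 at 0.70, the genes at the left stay high in both, whereas Hspb6 goes from 0.62 to 0.39.

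Among themselves the 6 genes Hspa1a, Hspa1b, Hsp90aa1, Dnajb1, Hsph1 and Hspb1 had r of 0.70 to 0.97. Without the third knockout heart the lowest were Hsp90aa1 with Hspb1 and Hsph1 with Hspb1, both at 0.52. Of 15 probe sets left out for listing several genes, 3 had an r above 0.7 with Hspa1b: 0.94 for the probe set of Hspa1a and Hspa1b together, 0.84 for that of Snord14e and Hspa8, and 0.79 for that of Dnaja1 and Mir207. The other 12 had r of -0.44 to 0.60. The 3 dimmer Hspa8 probe sets had r of 0.29 to 0.48, so the probe sets of this gene disagreed.

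Most members varied little. The median SD within groups was 0.15 over the 69 members and 0.183 over all genes, which hold a larger share of dim probe sets. SDs were not compared at equal brightness. The 5 largest were those of Dnajb1 (0.5, above 99.4% of all genes), Hspa1b (0.473), Hspa1a (0.411), Hsph1 (0.363) and Hspb1 (0.293). Without the third knockout heart these were 0.311, 0.23, 0.231, 0.301 and 0.236, and Hspa1b was then above 74% of all genes.

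Between the times of day, 1 member changed in the wild-type hearts, which is 1 of 69, where 1.13% of all genes were called (limma, adjusted p under 0.05 over 22180 genes). Hspa12a, a distant relative of HSP70, ran from 5.15 to 5.62 (median 5.27) in WT ZT0, from 4.76 to 5.20 (median 4.92) in WT ZT12, and read 4.80, 5.09, 5.04, 5.31 and 4.93 in KO ZT12. At ZT12, 6 of 7 hearts lay below every ZT0 heart. It fell by 0.36 on the log2 scale (SE 0.089, 1.28-fold, adjusted p = 0.0497 by limma). The call sat at the threshold and held without WT ZT12 replicate 3, KO ZT12 replicate 1 or KO ZT12 replicate 4, and was lost without any other single heart (adjusted p from 0.0303 to 0.111). It was also lost with the mean of all probe sets of a gene or with arrays centred on their medians. Since Hspa12a has 1 probe set that lists it alone, the first of these settings changed only the values of other genes.

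No inducible member passed between the times of day. The difference, ZT12 minus ZT0, was 0.06 for Hspa1b (95% interval -0.41 to 0.53), 0.04 for Hspa1a (-0.37 to 0.45), -0.01 for Dnajb1 (-0.50 to 0.48), -0.09 for Hsph1 (-0.45 to 0.27), -0.10 for Hsp90aa1 (-0.34 to 0.14) and -0.11 for Hspb1 (-0.41 to 0.19). These intervals allow a fall of the size measured for Hspa12a in each of these genes but Hsp90aa1. Hearts of the 2 times overlapped in every member, where 0.902% of all genes had no overlap. Over all 69 members, 33 differences were above 0 and 36 below, with a median of -0.0015, beside -0.0035 for all genes. At an unadjusted p under 0.05 there were 9 members (13%), against 11.5% of all genes.

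Several members had smaller differences that did not pass. Dnajc3, an inhibitor of the kinase PERK in the endoplasmic reticulum, ran from 7.51 to 7.93 (median 7.73) in WT ZT0, from 7.23 to 7.63 (median 7.43) in WT ZT12, and read 7.42, 7.36, 7.59, 7.44 and 7.0 in KO ZT12, a difference of -0.33 between the times (adjusted p = 0.0904 by limma). Dnajb5, a J-domain protein of heart and brain, ran from 5.68 to 6.02 (median 5.91) in WT ZT0, from 5.43 to 5.83 (median 5.61) in WT ZT12, and read 5.72, 5.78, 5.50, 5.55 and 5.72 in KO ZT12 (difference -0.25, adjusted p = 0.0997 by limma). In both genes 5 of 7 ZT12 hearts lay below every ZT0 heart. When dim probe sets were left out, both passed (adjusted p = 0.0398 and 0.0391).

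Dnaja2, which delivers clients to Hspa8, ran from 9.02 to 9.24 (median 9.08) in WT ZT0, from 9.20 to 9.47 (median 9.25) in WT ZT12, and read 9.17, 9.30, 9.20, 9.25 and 8.99 in KO ZT12. Bag5, an exchange factor with several BAG domains, ran from 4.97 to 5.24 (median 5.09) in WT ZT0, from 4.73 to 5.22 (median 4.86) in WT ZT12, and read 4.89, 4.90, 4.99, 4.93 and 4.96 in KO ZT12. The wild-type groups overlapped in both, with time differences of 0.19 (adjusted p = 0.176 by limma) and -0.20 (adjusted p = 0.249). Hspe1, the lid of the mitochondrial chaperonin, ran from 6.33 to 6.90 (median 6.75) in WT ZT0, from 6.24 to 6.67 (median 6.61) in WT ZT12, and read 6.57, 6.62, 6.55, 6.56 and 6.83 in KO ZT12, with a time difference of -0.15 (adjusted p = 0.53). Its partner Hspd1, at 9.24 ± 0.13 (SD, n = 7) and 9.22 ± 0.023 (SD, n = 7), differed by -0.02.

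**Figure D4:**
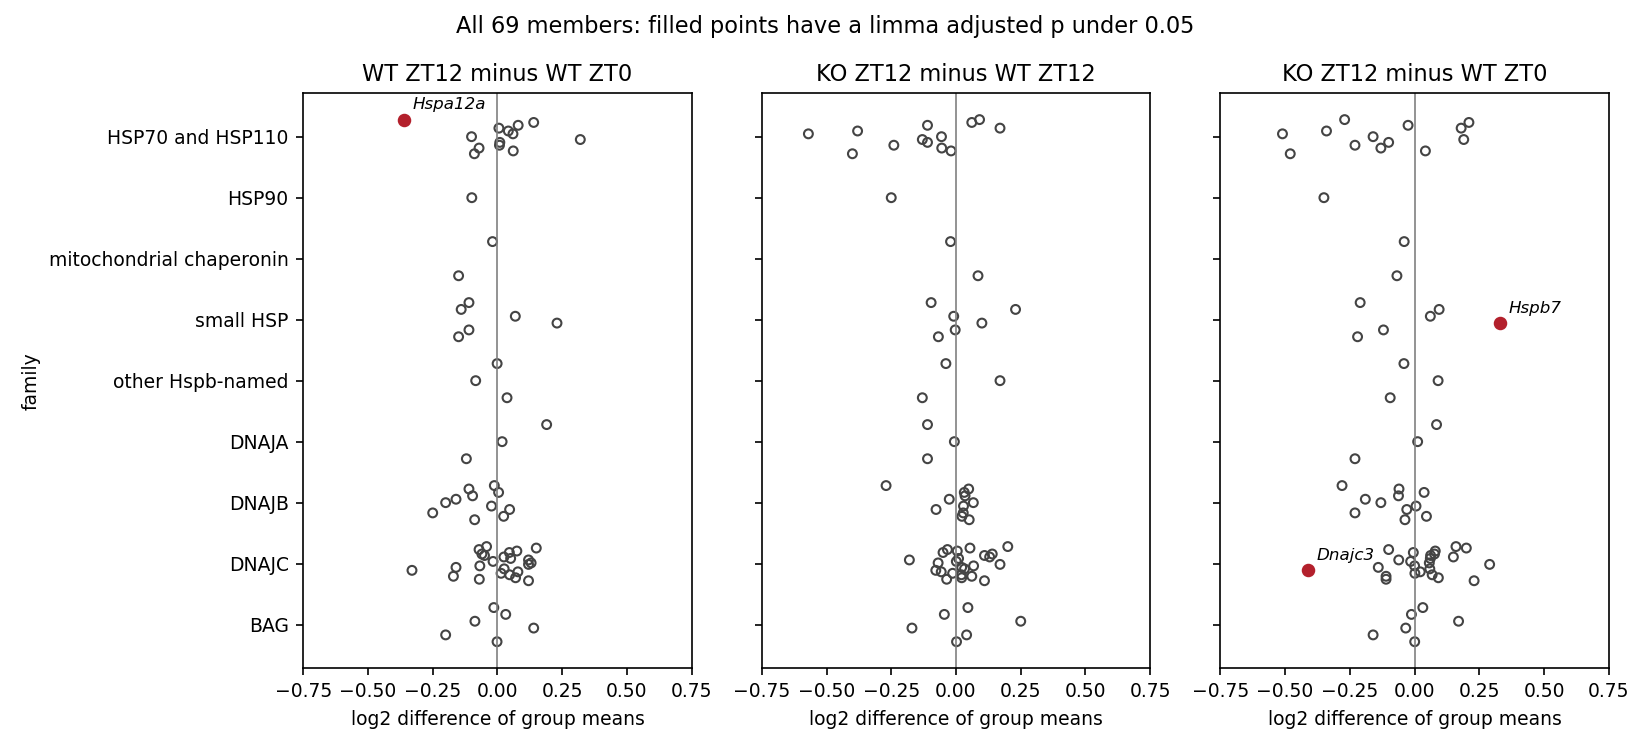
Difference of group means (log2) for all 69 members in each comparison, arranged by family, with filled points at a limma adjusted p under 0.05. Hspa12a is the only filled point between the times of day, none is filled between the genotypes, and Hspb7 and Dnajc3 are filled for KO ZT12 against WT ZT0.

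Between the genotypes at ZT12, 0 of 69 members passed by limma, where 0.73% of all genes did. At an unadjusted p under 0.05 there were 5 members (7.25%), against 10.6% of all genes. Without KO ZT12 replicate 3 there were 4 members, and the share of all genes was not counted for that setting. The median difference was 0.0013, beside -0.003 for all genes. Bag3 ran from 8.15 to 8.48 (median 8.40) in WT ZT0, from 8.17 to 8.40 (median 8.29) in WT ZT12, and read 8.48, 8.42, 8.27, 8.56 and 8.89 in KO ZT12. In the knockout 4 of 5 hearts lay above every WT ZT12 heart, and the difference was 0.25 (95% interval 0.07 to 0.44, adjusted p = 0.262 by limma). It was 0.16 without KO ZT12 replicate 5 and 0.091 without the 4 hearts low in atrial markers. KO ZT12 replicate 5, the highest heart for Bag3, had the lowest marker means of all 19 hearts for fibroblasts (7.06, against 7.3 to 7.85 in the rest), smooth muscle (5.56, against 5.81 to 6.9), macrophages (5.29, against 5.73 to 6.17), erythroid cells (2.72, against 2.84 to 3.22) and skeletal muscle (3.62, against 4.22 to 5.15). Their part in the Bag3 value was not tested.

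For the inducible genes the difference leaned on a single heart. Knockout minus wild type was -0.57 for Hspa1b (95% interval -1.09 to -0.06, adjusted p = 0.402 by limma), -0.40 for Hsph1 (-0.79 to 0.00), -0.38 for Hspa1a (-0.83 to 0.06), -0.27 for Dnajb1 (-0.81 to 0.27) and -0.25 for Hsp90aa1 (-0.51 to 0.01). Without the third knockout heart it was -0.20 for Hspa1b and Hsph1, -0.08 for Hspa1a, 0.08 for Dnajb1 and -0.07 for Hsp90aa1. For Hspb1 it was -0.10 (95% interval -0.42 to 0.23), and 0.07 without that heart. Over all 69 members 34 differences (49.3%) were below 0, against 51% of all genes, and 32 without that heart. They were below 0 in 10 of the 13 HSP70 and HSP110 genes (9 without that heart). For DNAJC they were below 0 in 8 of 24 genes (10 without that heart), and for small heat shock proteins in 4 of 6 (2 without it). With and without that heart the counts were 3 of 3 DNAJA, 3 of 11 DNAJB and 2 of 6 BAG genes. The median of the HSP70 and HSP110 genes was -0.11, and -0.02 without that heart.

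The member whose hearts did not overlap between the genotypes was Dnajc1, a J-domain protein of the endoplasmic reticulum membrane, where 1.4% of all genes had no overlap. It ran from 5.66 to 5.93 (median 5.84) in WT ZT0, from 5.46 to 5.85 (median 5.79) in WT ZT12, and read 5.94, 5.94, 5.87, 5.94 and 6.12 in KO ZT12 (difference 0.20, adjusted p = 0.298 by limma). Hspa14, an HSP70 that works at the ribosome, ran from 4.76 to 5.14 (median 4.88) in WT ZT0, from 4.81 to 4.98 (median 4.95) in WT ZT12, and read 5.03, 5.21, 5.09, 4.98 and 5.13 in KO ZT12, so 4 of 5 knockout hearts were above every WT ZT12 heart (difference 0.17, adjusted p = 0.339). Hspb3, a small heat shock protein of muscle, ran from 4.60 to 5.15 (median 4.88) in WT ZT0, from 4.27 to 5.09 (median 4.85) in WT ZT12, and read 5.04, 5.04, 5.15, 5.25 and 4.49 in KO ZT12. Its groups overlapped (difference 0.23, adjusted p = 0.598).

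Knockout hearts at ZT12 differ from WT ZT0 hearts in both genotype and time, and this comparison shares its arrays with the other comparisons. In it 2 members changed, where 1.34% of all genes were called. With dim probe sets left out, 63 members and 11440 genes stayed, and 2 of the former and 529 of the latter were called. At an unadjusted p under 0.05 there were 15 members (21.7%), against 12.6% of all genes, many of them dim. Without KO ZT12 replicate 3 there were 12 such members, and the share of all genes was not counted for that setting. Hspb7, the cardiac small heat shock protein of the thin filament, ran from 10.57 to 10.86 (median 10.79) in WT ZT0, from 10.71 to 11.18 (median 11.02) in WT ZT12, and read 11.15, 11.10, 10.98, 11.09 and 11.22 in KO ZT12. All 5 knockout hearts were above every WT ZT0 heart, and it rose by 0.33 (SE 0.08, 1.26-fold, adjusted p = 0.0374 by limma). The same gene differed by 0.23 between the times in wild type (adjusted p = 0.16) and by 0.10 between the genotypes (adjusted p = 0.708).

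The Hspb7 call was lost with the atrial marker mean as a covariate (difference 0.25, adjusted p = 0.304 by limma) and without the 4 hearts low in atrial markers (0.29, adjusted p = 0.443), where 2 knockout hearts remained. Of these 4 hearts 3 are knockouts, and Hspb7 read 11.09 to 11.22 in all 4. In the other knockout hearts it read 11.15 in replicate 1 (atrial mean 8.76) and 10.98 in replicate 3 (8.08). In WT ZT12 it read 11.18, 11.02 and 11.15 in replicates 3, 4 and 6 (atrial means 7.05, 7.51 and 7.76). Lower values of 10.9, 10.71 and 10.97 were in WT ZT12 replicates 1, 2 and 7 (8.54, 8.64 and 8.78). The WT ZT0 hearts, with atrial means of 7.58 to 8.94, read 10.57 to 10.86. The part of atrial tissue in the Hspb7 values was not tested. Leaving out single hearts, the call was lost without any WT ZT0 heart but replicate 4 and without any knockout heart but replicate 3 (adjusted p from 0.0187 to 0.115 over all 19 removals). Dnajc3 fell by 0.41 on the log2 scale (SE 0.099, 1.32-fold, adjusted p = 0.0421 by limma), with 4 of 5 knockout hearts below every WT ZT0 heart. Its call held without WT ZT0 replicate 3, without WT ZT12 replicates 4, 5 or 7, or without KO ZT12 replicate 3, and was lost without any other single heart (adjusted p from 0.0244 to 0.132). With the atrial mean as a covariate its difference was -0.27 (adjusted p = 0.358), and without the 4 hearts low in atrial markers -0.26 (adjusted p = 0.511).

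Hearts of KO ZT12 and WT ZT0 did not overlap in 3 members, where 1.72% of all genes had no overlap. Besides Hspb7 these were Dnajc24, which serves the synthesis of diphthamide (4.09 ± 0.17 against 3.80 ± 0.09, SD, n = 5 and 7, difference 0.29, adjusted p = 0.185 by limma), and Dnajc10, a disulfide reductase of the endoplasmic reticulum (7.39 ± 0.036 against 7.19 ± 0.13, difference 0.20, adjusted p = 0.222). The inducible genes differed by -0.51 for Hspa1b, -0.48 for Hsph1 and -0.35 for Hsp90aa1, and none passed (adjusted p = 0.396, 0.274 and 0.221 by limma). Without the third knockout heart these differences were -0.14, -0.29 and -0.17. Hspa4l, an HSP110 relative, differed by -0.23 and Hspa12b, a distant relative of HSP70 in endothelium, by 0.21, and neither passed.

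The rest of the pathway was read from lists of general knowledge. In a list of 5 genes measured, the heat shock factors Hsf2, Hsf4 and Hsf5 and the binding proteins Hsbp1 and Hsf2bp, 0 passed by limma between times or genotypes. At an unadjusted p under 0.05 there were 0 and 2, the latter Hsbp1 and Hsf2bp. Hsbp1, which binds HSF1, was higher in KO ZT12 than in WT ZT0 by 0.29 (adjusted p = 0.0328 by limma). Of 20 other co-chaperones of HSP90 and HSP70, 0 passed by limma between times or genotypes (5 and 2 at an unadjusted p under 0.05). Against WT ZT0, the knockout hearts had more Fkbp5, an HSP90 co-chaperone induced by glucocorticoids (0.65, adjusted p = 0.0249), and less Chordc1 (-0.41, adjusted p = 0.0254), with a list median of -0.068, beside -0.0076 for all genes. Of 12 cytosolic chaperonin and prefoldin genes only Pfdn2, a prefoldin subunit, passed, at 0.42 against WT ZT0 (adjusted p = 0.00375), while the list median was -0.055.

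Some chaperones of the endoplasmic reticulum passed with lower values than in WT ZT0. Serpinh1, the collagen chaperone, fell by 0.39 between the times (adjusted p = 0.00623 by limma, no overlap), and was lower by a log2 difference of -0.41 in KO ZT12 against WT ZT0 (adjusted p = 0.00851). It was the only gene to pass between the times in its list of 10, which holds small heat shock protein, ubiquitin and aggregate clearance genes such as Cryab, Cryaa and Sqstm1. Hsbp1, given above, is also in this list. Of the 3 reticulum chaperones that the symbols leave out, Hspa5 and Hsp90b1 were lower in KO ZT12 than in WT ZT0, by differences of -0.47 (adjusted p = 0.00683) and -0.31 (adjusted p = 0.0334), and 0 of 3 passed by limma between the times or between the genotypes (2 and 0 at an unadjusted p under 0.05). Of 29 immediate early genes, Ier3 rose between the times (0.51, adjusted p = 0.0224), and Nr4a3 was lower in the knockout at ZT12 (-0.87, adjusted p = 0.0442), with list medians of 0.11 and -0.19, beside -0.0035 and -0.003 for all genes.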

How the data were processed

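Per the submitters' processing notes, the authors used RMA, a method that subtracts background, equalises the distributions of the arrays and combines the probes of a set. The deposited values were taken as log2, since they ran from 0.2081 to 12.88. No version of RMA is given in the sources used here. Probe sets were named from the platform annotation. Of 41345 probe sets, 23521 listed 1 gene, and these gave 22180 genes.

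The comparisons used limma 3.58.1 (R 4.3.3), as 1 linear model with a mean per group over 19 arrays and eBayes. Tests were two-sided, with Benjamini-Hochberg adjustment over all genes and calls at an adjusted p under 0.05. Correlations used 1e+05 resamples within groups. The procedure was tested on simulated data. Replicates are called biological in the labels, and the number of arrays limits the precision.

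The members and the lists were chosen with earlier results of these data known. Values in every array are given for Hspa1b, Bag3 and Hspb7, for members called, for the member with the smallest p of each family between times and between genotypes, and for the 5 largest SDs. Same-numbered arrays did not deviate together (r from -0.07 to 0.07, 0 pairs over 0.1), so no pairing was used.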

Additional observations from a re-analysis of the deposited data

Results flagged for a closer look

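In the genes whose values are given for every array, the highest and lowest heart of each group was set against the rest by Dixon's test. Of 51 groups of values, 9 held a heart far from the others. The test passes about 1 in 20 groups by chance when groups are independent and not chosen by spread. Here 5 genes were chosen for their large SD and several moved together, so the count cannot be set against that rate. In KO ZT12 replicate 3 these were Dnajb1 at 6.47, Hsp90aa1 at 6.79 and Hspa1b at 8.66, each the lowest. In KO ZT12 replicate 5, Dnajc1 was highest at 6.12, Hspe1 was highest at 6.83 and Hspb3 was lowest at 4.49. In WT ZT12, Dnajc1 was lowest in replicate 5 at 5.46 and Hspa1a was lowest in replicate 1 at 10.91. In WT ZT0, Hspb7 was lowest in replicate 6 at 10.57.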

How the results depend on the processing

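The count of members called between the times of day was 1, and it was 0 with only the compared arrays, with the mean of all probe sets, with arrays centred on their medians, with the immediate early mean as a covariate and after removal of the 4 atrial-low arrays, the last chosen after seeing the data. It was 3 of the 63 members kept with dim probe sets left out (Dnajb5, Dnajc3 and Hspa12a) and 3 in eBayes with trend (Dnajc3, Hspa12a and Hspb7). For KO ZT12 against WT ZT0 it was 2, and 1 with only the compared arrays or with centred arrays. It was 0 with the atrial mean as a covariate, with the replicate block and after removal of the 4 atrial-low arrays. The replicate block gave 1, 0 and 0 calls in the 3 comparisons. Leaving out 1 array at a time gave 0 to 1 calls between times, 0 between genotypes and 0 to 2 against WT ZT0. Between genotypes the count was 0 under every alternative run. Of all genes, 250 were called between times, and 416 of the 11440 genes kept with dim probe sets left out. With trend 359 of 22180 genes were called between times, and 171 with the replicate block. The number was 208 with only the compared arrays, 237 with the mean of all probe sets and 223 with centred arrays. It was 242 with the immediate early mean as a covariate, 211 after removal of the 4 atrial-low arrays and 185 to 269 with 1 array left out. Between genotypes 162 were called, and 72 with only the compared arrays, 289 with dim probe sets left out, 267 with trend, 88 with the replicate block, 19 after removal of the 4 atrial-low arrays and 94 to 161 with 1 array left out. Against WT ZT0, 298 were called, and 187, 529, 442, 182 and 84 under the same settings, 166 with the atrial mean as a covariate and 171 to 311 with 1 array left out. Signs turned near 0: Hspa1b between times was -0.044 with either list mean as a covariate, and Dnajb1 between genotypes was 0.084 without KO ZT12 replicate 3 (range -0.44 to 0.08 with 1 array left out). The correlation of Hspa1b with Hspb7 was -0.05 as Spearman's rho, -0.15 without the 2 farthest arrays, and -0.10 without KO ZT12 replicate 3 by r and by rho. Without that array it was -0.00 (r) and -0.10 (rho) with Hspd1 and 0.03 (r) and 0.09 (rho) with the atrial mean. The cause of these changes was not tested. The 7 correlations that passed did so under every alternative run.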
